A study of Mus musculus with 4 samples.

Results

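Intronic AGO2 clusters are the regions of AGO2-bound RNA, called by the study from eCLIP reads, that lie between the exons of protein-coding genes. A region was counted as intronic when its midpoint fell inside a protein-coding gene of the same strand, in no exon of any gene, and when it overlapped no miRNA, snoRNA or scaRNA gene. By this rule 35803 of 86106 regions were intronic in the knockout-labelled library and 20096 of 46860 in the wild-type library, on 4904 and 3943 host genes. The table that sets the wild-type library against the knockout-labelled one held 20096 intronic regions among 46862. AGO2 eCLIP was done on C57BL/6 whole brains taken at P0 (postnatal day 0), with 1 library from an Fmr1 knockout and 1 from the wild type, and each had its own size-matched input. Its title places the question in the binding of the RNA-binding protein FMRP to AGO2. The sources used here name no Fmr1 allele, no sex and no number of animals per library, so the mutant library is called knockout-labelled. Because each genotype had 1 immunoprecipitated library, no difference between the genotypes could be tested, and all intervals below cover counting error only.

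Argonaute 2 holds a miRNA and is led by it to RNA that pairs with the seed, the bases near the miRNA's 5′ end. Its best known targets are sites in 3′ UTRs of mature mRNA in the cytoplasm, while introns are removed in the nucleus and most are degraded. In eCLIP, RNA is crosslinked to the protein by ultraviolet light, trimmed, pulled down and sequenced, and the input shows what the same RNA gives without the pull-down. Many brain genes for synapses, cell adhesion and axon growth carry introns of great length. let-7 and miR-124 are abundant in neurons, and miR-9 is abundant in the neonatal brain, in progenitors and neurons.

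The seeds whose sites were searched for in the intronic peaks are shown in capitals within mature miRNAs of mouse from RefSeq. For miR-124 the seed is shown within 20 bases of the Mir124a-3 hairpin of GENCODE. A seed site in RNA is the reverse complement of bases 2 to 8, which is CTACCTC for let-7 and GTGCCTT for miR-124.
let-7a-5p: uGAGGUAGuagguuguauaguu
miR-124: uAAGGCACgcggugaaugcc
miR-9-5p: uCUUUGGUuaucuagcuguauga
miR-16-5p: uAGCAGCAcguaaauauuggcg
miR-30a-5p: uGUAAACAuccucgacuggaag

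The next sequences are intronic peaks that held several copies of 1 seed site, written 5′ to 3′ on the strand of the host gene (mm10), with the sites in capitals. They are shown because single introns carried up to 13 let-7 sites in 1 peak.
Plcb1 (chr2:135283475-135283599, plus strand): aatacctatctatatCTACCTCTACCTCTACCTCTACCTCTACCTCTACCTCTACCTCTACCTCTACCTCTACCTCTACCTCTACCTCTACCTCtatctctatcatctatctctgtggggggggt
Rims1 (chr1:22360673-22360775, minus strand): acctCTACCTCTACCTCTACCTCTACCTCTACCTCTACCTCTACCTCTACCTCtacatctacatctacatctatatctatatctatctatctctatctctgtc
Kcnq5 (chr1:21661748-21661925, minus strand): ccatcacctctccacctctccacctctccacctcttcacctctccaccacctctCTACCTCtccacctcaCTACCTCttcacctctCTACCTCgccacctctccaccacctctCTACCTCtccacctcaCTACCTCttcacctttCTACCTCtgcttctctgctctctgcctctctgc
Rassf8 (chr6:145769563-145769644, plus strand): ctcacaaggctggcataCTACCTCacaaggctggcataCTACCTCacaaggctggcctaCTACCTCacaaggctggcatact
Farp1 (chr14:121228083-121228193, plus strand): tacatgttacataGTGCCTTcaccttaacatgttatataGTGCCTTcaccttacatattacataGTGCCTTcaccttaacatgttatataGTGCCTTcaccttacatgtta
Scn8a (chr15:100976345-100976459, plus strand): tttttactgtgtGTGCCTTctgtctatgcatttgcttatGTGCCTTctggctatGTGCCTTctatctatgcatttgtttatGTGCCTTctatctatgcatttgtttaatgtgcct

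Other intronic peaks held 1 let-7 or miR-124 site, and these are the ones among them with high scores.
Unc5c (chr3:141485135-141485262, plus strand): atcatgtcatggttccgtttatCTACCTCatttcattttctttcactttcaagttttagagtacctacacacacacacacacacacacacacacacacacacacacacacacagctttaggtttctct
Ilkap (chr1:91393281-91393368, minus strand): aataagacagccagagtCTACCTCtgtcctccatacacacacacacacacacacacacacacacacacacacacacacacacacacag
Prpf6 (chr2:181642356-181642443, plus strand): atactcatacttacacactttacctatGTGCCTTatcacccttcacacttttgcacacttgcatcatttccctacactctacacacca

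Narrow intronic peaks of another kind read like a mature miRNA itself, in the sense direction. For these the intron is given first and the mature miRNA after it, with identical bases in capitals.
Grm5 intron (chr7:87979697-87979726, plus strand): TCCCTGAGACCCTAACaTaTGA
miR-125b-5p: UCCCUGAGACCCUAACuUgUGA
Gria3 intron (chrX:41546667-41546691, plus strand): GCTGACCCCTAGTCtAGTGtTc
miR-345-5p: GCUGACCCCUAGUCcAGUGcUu
Gnaz intron (chr10:74993518-74993540, plus strand): TAAGGCAaGCGGTGAcTaCt
miR-124: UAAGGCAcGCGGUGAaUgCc
Il1rapl2 intron (chrX:137668828-137668854, plus strand): TTCCCTTTGTCATCCTAaaaCT
miR-204-5p: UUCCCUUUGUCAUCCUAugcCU
Csmd3 intron (chr15:48673162-48673186, minus strand): TAAAGTGCTTATAGTGatGGTgG
miR-20a-5p: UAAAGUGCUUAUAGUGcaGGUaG
Ptdss1 intron (chr13:66996012-66996034, plus strand): AGCTGGTGTTGTGAATtctGCtt
miR-138-5p: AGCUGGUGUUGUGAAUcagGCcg

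The files give, for each region, the authors' log2 of immunoprecipitated over input read density and a −log10 p, with 400 as the highest value listed. Total reads per library are not in these tables, so depth is known only as a ratio. The input held 1.92 times the reads of its immunoprecipitation in the knockout-labelled pair and 6.34 times in the wild-type pair, and the knockout-labelled immunoprecipitation held 2.28 times the reads of the wild-type one. In 87 of 89 regions with the same coordinates in the knockout-labelled table and the table between libraries, the denominator of the table between libraries was exactly 1 above the reads of the knockout-labelled table, so denominators there carry 1 added read. The smallest input denominator was 1, and whether the input denominators carry the same added read is not shown by the files. Neuronal markers fixed for the tissue check (Tubb3, Map2, Snap25, Rbfox3 and Stmn2) had exonic clusters in both libraries, 81 in the knockout-labelled and 54 in the wild-type library, while the muscle markers Ckm, Acta1 and Myh3 had 0 and 2. Liver markers had 7 and 9, on 1 and 2 of 3 genes. Fmr1 itself had 5 regions in the knockout-labelled library and 2 in the wild type, all exonic and none enriched, with at most 11 and 5 reads in 1 region. Since the labels name no deleted part, these reads check neither the genotype nor the label.

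Introns gave the largest class of AGO2 regions in both libraries, yet a smaller share of them than of all regions passed the limits for enrichment. Intronic regions were 41.6% of all regions in the knockout-labelled library (95% Clopper-Pearson interval 41.3% to 41.9%) and 42.9% in the wild type (42.4% to 43.3%). A region is called enriched here when its −log10 p was 3 or more and its log2 over input was 3 or more. Of all regions, 3.08% passed these limits in the knockout-labelled library and 24.1% in the wild type. Of intronic regions, 388 passed in the knockout-labelled library, which is 1.08% (0.979% to 1.2%), and 3676 in the wild type, which is 18.3% (17.8% to 18.8%). Both shares lay below those of all regions. Coding regions had 1.65% and 21.2% enriched, and 3′ UTR regions had 8.89% and 37%.

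Introns therefore made up a smaller part of the enriched peaks than of the regions. They gave 14.6% of the 2651 enriched peaks in the knockout-labelled library (13.3% to 16%) and 32.6% of the 11289 in the wild type (31.7% to 33.4%). The 2 limits ask for different reads in the 2 libraries: with an input denominator of 1, a region needed 9 reads in the knockout-labelled library and 5 in the wild type. When the 2651 peaks with the highest −log10 p were taken from each library, introns gave 14.6% in the knockout-labelled library and 16.1% in the wild type. The intronic shares of the libraries thus lay far apart at the fixed limits and close together at equal numbers.

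Most intronic clusters rested on few reads. The median was 3 reads in each library, and regions of 1 to 3 reads were 61.5% of the knockout-labelled and 54.3% of the wild-type intronic regions with known reads. Among regions of all kinds with 10 or more reads, the intronic share was 10.6% in the knockout-labelled library (9.94% to 11.4%) and 14.6% in the wild type (13.4% to 15.9%). Reads were recovered for 75411 of the 86106 knockout-labelled and 45868 of the 46860 wild-type regions of all kinds. Regions listed with a −log10 p of 0, most of them at or below the input density, have none and are left out of every share by reads. Those listed at 400 have none either. They were counted among the regions with 10 or more reads, but not in the narrower classes of reads. Below the input density lay 9.23% of intronic regions in the knockout-labelled library and 2.54% in the wild type.

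Whether an intronic region was seen in both libraries also followed its reads. In the knockout-labelled library, regions of 1 to 3 reads overlapped a wild-type region in 1.40% of cases, those of 6 to 9 reads in 14.0%, and those of 20 or more reads in 88.6%. The same wild-type classes overlapped a knockout-labelled region in 5.68%, 21.4% and 98.9%. The few well-covered intronic sites were thus mostly found in both libraries, and the many thin ones in 1 only.

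At the limits for enrichment, 53.6% of the 388 knockout-labelled intronic peaks overlapped an enriched wild-type intronic peak (48.5% to 58.7%), and 5.55% of the 3676 wild-type peaks overlapped a knockout-labelled one (4.83% to 6.34%). With the 388 highest peaks of each library the shares were 39.2% and 38.1%. Such overlaps of coding or 3′ UTR peaks are not given here. Neither these shares nor those by reads therefore show a trait particular to introns. Host genes overlapped more than sites: 192 genes had an enriched intronic peak in both libraries, which is 77.1% of the knockout-labelled and 12.5% of the wild-type hosts.

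The intronic sites with the highest scores were single places in genes such as Grm5, Capn9, Ntrk3, Unc5c and Gria3, and these 5 were called in both libraries. Touching peaks were joined to describe places, since the peak caller had cut several of them into pieces. The top place lay in intron 5 of Grm5, which encodes the metabotropic glutamate receptor 5. Its log2 over input was 9.68 in the knockout-labelled library, from 428 reads, and 12.64 in the wild type, where reads could not be recovered at the listed −log10 p of 400. The place is 30 bases wide, 4342 bases from the 5′ splice site of an intron of 51053 bases. In Gria3, which encodes an AMPA receptor subunit, a place in intron 4 of 15 had 118 reads over a denominator of 1 in the knockout-labelled library (log2 7.82) and 164 over 1 in the wild type (log2 10.02). Both places are among those that read like a mature miRNA.

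Capn9, which encodes a calpain protease, held the second place, 19 bases in intron 5 of 19 (chr8:124598215-124598233). Its log2 over input was 7.996 in the knockout-labelled library and 8.74 in the wild type, with −log10 p of 400 in both. The gene is 42621 bases long, and all of its 5 clusters in each library were pieces of this place. Its letters and those of the next place, in Ntrk3, are shown because both ranked high while holding none of the 5 seed sites.
Capn9 (chr8:124598215-124598233, plus strand): tccctctacgcacagacta
Ntrk3 (chr7:78334888-78334914, minus strand): taaatattattcgtctagcaagcattt

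Ntrk3, which encodes the neurotrophin-3 receptor, had its place in intron 12 of 16. It had 101 reads over a denominator of 17 in the knockout-labelled library (log2 3.51), and a log2 of 6.45 with −log10 p of 400 in the wild type. Unc5c, which encodes a netrin receptor, had a log2 of 4.95 in the knockout-labelled library and 6.26 in the wild type at its let-7 site, 14268 bases into an intron of 189376 bases. Ilkap, which encodes a phosphatase, had 177 reads over 15 in the knockout-labelled library (log2 4.50) and 51 over 3 in the wild type (log2 6.75). The 3 places were enriched in both libraries, with the higher log2 in the wild type.

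At Prpf6, which encodes a spliceosome protein, the miR-124 site in intron 12 had 82 reads over 5 in the knockout-labelled library (log2 4.98) and 62 over 1 in the wild type (log2 8.62). At Gap43, which encodes a growth cone protein, a place with a miR-9 site had 56 reads over 1 in the knockout-labelled library (log2 6.75) and 39 over 1 in the wild type (log2 7.95). At Ilkap, Prpf6 and Gap43 the knockout-labelled library had more reads and the lower log2.

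Nova1 encodes a neuronal splicing regulator, and its last intron held 2 strong wild-type places. The first (chr12:46707878-46707960) had 28 reads over 37 in the knockout-labelled library (log2 0.54) and 76 over 36 in the wild type (log2 3.74). The second (chr12:46708228-46708324) had 90 over 55 in the knockout-labelled library (log2 1.65) and 67 over 40 in the wild type (log2 3.41). Both were enriched in the wild type and neither in the knockout-labelled library.
The letters of the first are shown because the libraries differed there.
Nova1 (chr12:46707878-46707960, minus strand): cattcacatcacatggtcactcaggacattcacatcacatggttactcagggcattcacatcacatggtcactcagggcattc

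Enriched intronic sites had many narrow members. After joining, 336 sites remained in the knockout-labelled library and 2891 in the wild type, with median widths of 78 bases (quartiles 67.8 and 94) and 63 bases (quartiles 52 and 66). In the knockout-labelled library a narrow set stood apart, with 18 sites at 21 to 25 bases, 1 at 36 to 40 and 43 at 71 to 75. The wild type had 138 sites at 21 to 25 bases, 95 at 36 to 40 and 1066 at 61 to 65, with no such gap. In all, 8.93% of the knockout-labelled and 10.2% of the wild-type sites were 31 bases wide or less. In the knockout-labelled library the share was 2.40% among enriched coding sites and 2.72% among 3′ UTR sites. Wild-type shares were 14.8% and 9.93%, so there narrow sites were no more frequent in introns.

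**Figure D1:**
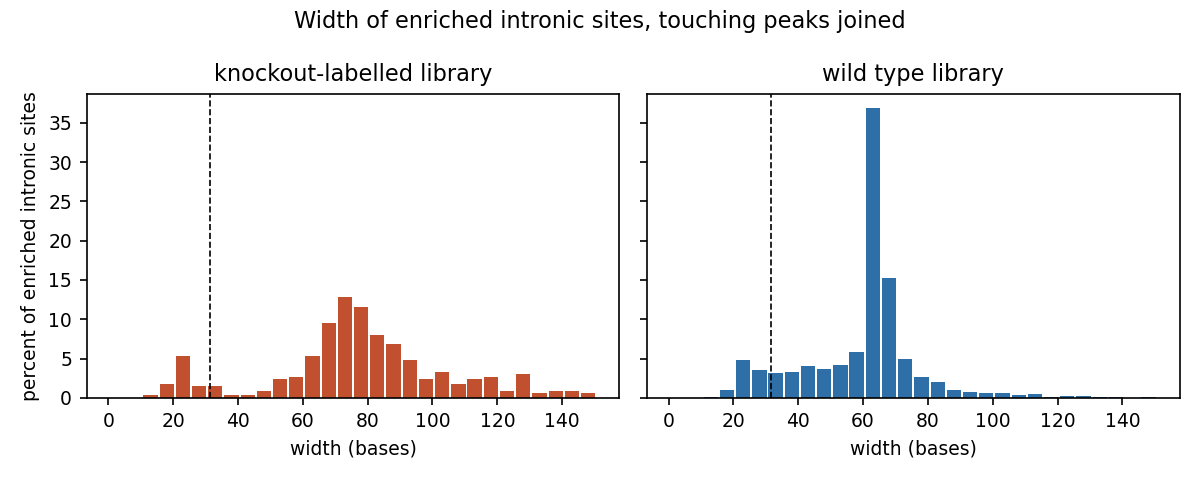
Width of enriched intronic sites after joining touching peaks, in bins of 5 bases, as percent of all such sites of a library (336 knockout-labelled, 2891 wild type; wider sites up to 301 bases are not drawn). The dashed line marks 31 bases; 18 knockout-labelled and 138 wild-type sites are 21 to 25 bases wide, and a gap follows in the knockout-labelled library but not in the wild type.

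Among narrow sites, some read like a miRNA. A site was so called when the first 16 bases of a RefSeq mature miRNA, or of the miR-124 stretch above, matched it with at most 2 mismatches outside repeat-masked sequence. This held for 10 of 30 narrow sites in the knockout-labelled library (33.3%, 17.3% to 52.8%) and for 31 of 295 in the wild type (10.5%, 7.25% to 14.6%). In windows of equal width 500 bases to either side it held for 0 of 50 and 4 of 534. In sites over 31 bases it held for 4.58% in the knockout-labelled and 3.24% in the wild-type library, against 4.59% and 3.50% of their control windows, so only narrow sites stood above their flanks. The cutoff of 31 bases and the match rule were chosen after these sites had been seen, and none of the places is annotated as a miRNA gene.

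The matched miRNAs are mostly known from brain or abundant in many tissues. miR-125b-5p was matched by 2 knockout-labelled and 5 wild-type narrow sites, miR-20a-5p by 2 and 2, and miR-128-3p, a neuronal miRNA, by 2 in the wild type. Cdc42bpa matched miR-16-5p and had 35 reads over 1 in the knockout-labelled library and 19 over 1 in the wild type. All 10 matching knockout-labelled sites overlapped an enriched wild-type intronic site, while 17 of the other 20 narrow sites and 44.4% of the 306 wider ones did. Reads of the mature miRNA and reads of the intron cannot be told apart in these files, and which of them filled these sites was not tested. Without all sites that passed the match rule, introns gave 13.5% of enriched peaks in the knockout-labelled library and 31.6% in the wild type.

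Seed sites of neuronal miRNAs were frequent in the enriched intronic peaks, above all those of miR-124 and let-7. Any of the 5 seed sites lay in 42.0% of the 388 knockout-labelled peaks (37% to 47.1%) and in 8.68% of the 3676 wild-type peaks (7.79% to 9.63%). Windows of equal width 500 bases away in the same introns held one in 2.12% (1.19% to 3.47%) and 1.73% (1.43% to 2.06%) of cases. Intronic regions that were not enriched, whose width was not matched to that of the peaks, held one in 4.46% and 3.82%. The intervals of peaks and windows did not overlap in either library.

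The miR-124 site GTGCCTT was in 19.8% of the knockout-labelled peaks (16% to 24.2%) and 2.94% of the wild-type peaks (2.42% to 3.54%), against 0.564% and 0.310% of the control windows. The let-7 site CTACCTC was in 18% of the knockout-labelled peaks (14.3% to 22.2%) and 3.70% of the wild-type peaks (3.11% to 4.36%), against 0.423% and 0.295%. The miR-9 site ACCAAAG was in 4.38% and 1.09% of peaks, against 0.423% and 0.339% of windows. For miR-15/16 the shares in peaks were 2.32% and 0.979%, against 0.423% and 0.501% in windows. For miR-30 they were 0.515% and 0.218%, against 0.282% and 0.310%, so its site was not more frequent in the peaks within counting error.

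Over all words of 7 bases, none chosen in advance, GTGCCTT led the joined knockout-labelled sites by difference from their flanks, in 23.2% of 336 sites and 0.648% of windows, and CTACCTC came next with 20.5% and 0.486%. In the wild type the alternating words ACACACA (6.92% of sites, 1.84% of windows) and CACACAC led, CTACCTC was the third with 4.74% and 0.394%, and GTGCCTT the sixth with 3.87% and 0.394%. GGGAGGG followed, in 4.05% of wild-type sites and 0.768% of windows.

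The difference between the libraries in seed sites was smaller at equal numbers of peaks. The 388 wild-type intronic peaks with the highest −log10 p held a seed site in 23.5% of cases (19.3% to 28.0%), against 42.0% in the knockout-labelled library. Their let-7 share was then 12.1% and their miR-124 share 7.99%. Wild-type peaks were also narrower, and with 50 bases added on each side the shares were 47.4% in the knockout-labelled and 14.2% in the wild-type library. Among intronic regions with recovered reads, enriched or not, seed sites also became more frequent with reads, with width not held equal. In the knockout-labelled library 3.55% of those of 1 to 3 reads, 26.8% of those of 10 to 19 reads and 30.7% of those of 20 or more held one. The same wild-type classes held one in 3.77%, 19.3% and 25.8% of cases.

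**Figure D2:**
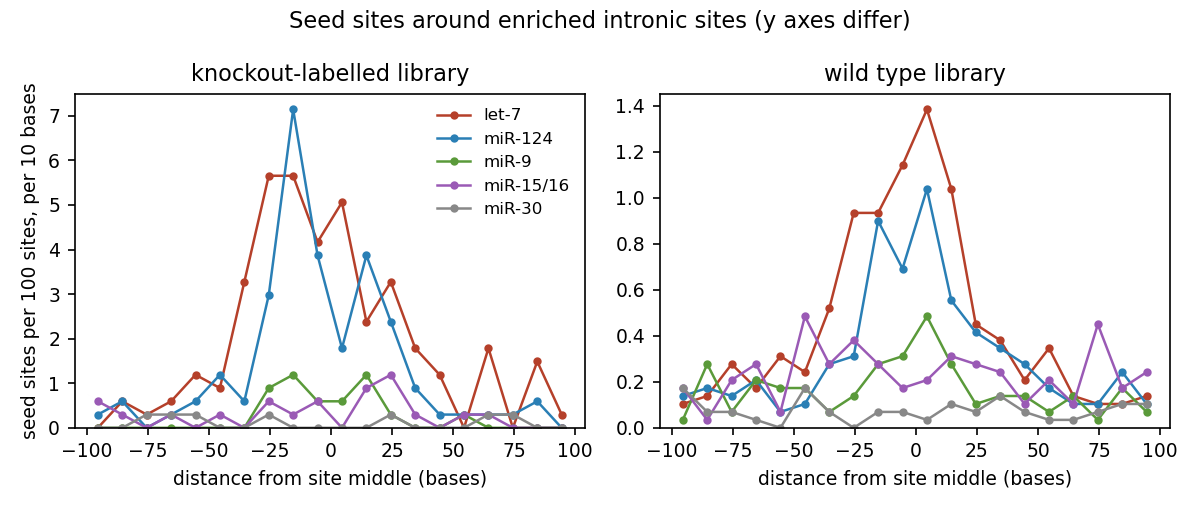
Position of the 7-base seed sites around the middle of enriched intronic sites (touching peaks joined), in bins of 10 bases, as sites per 100 enriched sites; negative distances lie towards the 5′ end, and the y axes of the libraries differ. let-7 and miR-124 sites gather near the middle: miR-124 reaches 7.14 per 100 in the bin from -20 in the knockout-labelled library, and let-7 reaches 1.38 per 100 in the bin from 0 in the wild type.

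Compared with exonic peaks at the same number of 388, intronic peaks of the knockout-labelled library held a let-7 site in 18% of cases, coding peaks in 15.2% (11.8% to 19.2%) and 3′ UTR peaks in 6.19% (4% to 9.06%). A miR-124 site was in 19.8% of intronic, 8.51% of coding and 18.3% of 3′ UTR peaks. In the wild type at 388 peaks each, let-7 sites were in 12.1% of intronic, 15.2% of coding and 6.44% of 3′ UTR peaks, and miR-124 sites in 7.99%, 5.41% and 14.2%. The miR-30 site marked 3′ UTR peaks, with 5.15% in both libraries, against 0.515% and 0.258% in introns. At 388 peaks each, the let-7 share in introns was thus above that in 3′ UTRs in both libraries. The intervals did not overlap in the knockout-labelled library (14.3% to 22.2% and 4% to 9.06%) and overlapped in the wild type (9.04% to 15.8% and 4.21% to 9.36%). Over all enriched wild-type peaks the let-7 shares were alike, 3.70% in introns (3.11% to 4.36%) and 3.59% in 3′ UTRs (2.97% to 4.30%). Over all enriched knockout-labelled 3′ UTR peaks the let-7 share was 7.49%.

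Places with 3 or more copies of 1 seed site were few. Of 3062 enriched intronic places of both libraries together, 159 held a let-7 site and 8 of them held 3 or more, 152 held a miR-124 site and 3 of them held 3 or more. Plcb1, which encodes a phospholipase C, carried 13 let-7 sites in intron 9, with 29 reads over 1 in the knockout-labelled library (log2 5.80) and 15 over 2 in the wild type (log2 5.57). Kcnq5, a potassium channel gene, carried 6 let-7 sites in its first intron, with 58 reads over 1 (log2 6.80) and 21 over 1 (log2 7.06). Rims1, a gene of the presynaptic active zone, carried 8 let-7 sites, with 19 over 1 (log2 5.19) and 7 over 2 (log2 4.47).

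Farp1, which encodes an activator of small GTPases, carried 4 miR-124 sites in intron 5, with 68 reads over 4 in the knockout-labelled library (log2 5.03) and 52 over 2 in the wild type (log2 7.36). Scn8a, a sodium channel gene, carried 4 in intron 11, with 22 over 2 (log2 4.399) and 20 over 3 (log2 5.40). Mcrs1 and Trappc9 carried 10 and 6 let-7 sites and were enriched in both libraries as well. A word such as CTACCTC also arises in a repeat of CTACCT, as in Plcb1 and Rims1, and copies can overlap there. Slc35f3 carried 12 copies of the miR-15/16 site TGCTGCT, which a CTG repeat also gives, in a place of 342 bases.

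Repeats were part of the same picture. On average 38.6% of the bases of knockout-labelled and 29% of those of wild-type enriched intronic peaks were soft-masked in the genome as repeats, against 25.2% and 23.9% in the control windows. A run of 6 or more CA units within 50 bases was found at 12.4% of knockout-labelled and 5.20% of wild-type peaks, against 1.13% and 1.33% of windows. Intronic regions that were not enriched had such a run in 11.6% and 10.1% of cases. CT runs of the same length were at 6.19% and 2.39% of enriched peaks, against 0% and 0.442% of windows and 1.82% and 2.06% of regions not enriched. GT runs were at 10.1% and 5.33% of enriched peaks, against 2.68% and 1.36% of windows and 4.14% and 4.23% of regions not enriched. Of the joined knockout-labelled sites with a let-7 site, 34.8% had a run of CA, GT, CT or AG within 50 bases, against 29.9% of sites with neither a let-7 nor a miR-124 site. Sites with a miR-124 site had one in 24.4% of cases. The wild-type shares were 24.1% with a let-7 site, 16.1% with a miR-124 site and 13.9% with neither. Per the labels' protocols, reads that matched a database of mouse repeats were removed before mapping to the genome, and how reads with several genomic matches were placed is not given in the sources used here. The part of either step in these shares was not tested.

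A predicted G-quadruplex, the structure named in the study's title, was rare near intronic peaks. It was searched as 4 runs of at least 3 G with loops of at most 7 bases, on the strand of the gene, within the peak or 50 bases on either side. It was found at 12 of 388 knockout-labelled peaks (3.09%, 1.61% to 5.34%) and 165 of 3676 wild-type peaks (4.49%, 3.84% to 5.21%), against 1.13% (0.488% to 2.21%) and 1.03% (0.806% to 1.30%) of windows 500 bases away. For the wild type the interval lay above that of its windows, and for the knockout-labelled library the intervals overlapped. Intronic regions that were not enriched had 2.37% and 2.39%. Enriched coding peaks had 3.83% in the knockout-labelled library and 1.56% in the wild type, and enriched 3′ UTR peaks 5.38% and 4.28%. At 388 peaks each the shares were 3.09% and 4.64%, with overlapping intervals.

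Enriched intronic peaks were spread over introns of every rank, close to the share of bases those introns hold. To set the base line, the exon-free bases of each host gene were divided by intron number, each gene counted as often as it had peaks. The first intron held 33.5% of the knockout-labelled peaks (28.8% to 38.4%) and 31.6% of the wild-type peaks (30.1% to 33.2%), against 31.8% and 31.2% of the bases. The last intron held 8.25% and 7.97%, against 7.56% and 7.52% of the bases. In the 388 highest wild-type peaks the last intron held 13.4%, against 8.08% of the bases. For all intronic regions, enriched or not, the first intron held 30.97% and 31.2%, against 31.1% in both libraries. In the transcript with the most exons, the first intron held 29.6% and 28.8% of enriched peaks, against 29.3% and 29% of the bases.

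**Figure D3:**
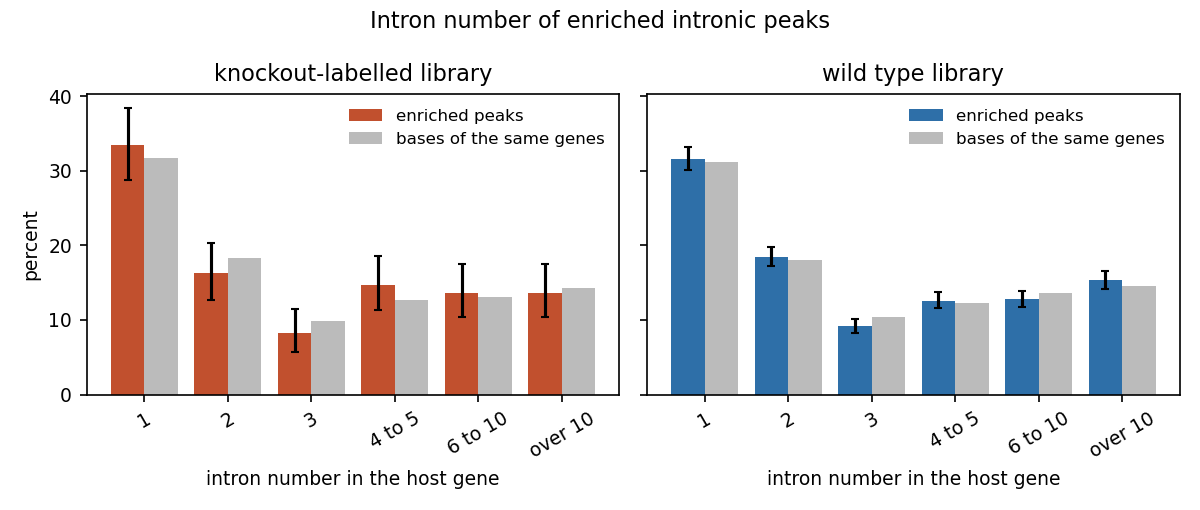
Intron number of enriched intronic peaks (coloured bars, percent of peaks, with 95% Clopper-Pearson intervals) beside the share of exon-free bases of the same genes (grey bars), for 388 knockout-labelled peaks on the left and 3676 wild-type peaks on the right. Each coloured bar stands close to its grey bar, with 33.5% against 31.8% and 31.6% against 31.2% for the first intron.

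Within introns the peaks, like all intronic regions, lay far from exons, and more of them in the 5′ part. The median distance to the 5′ splice site was 11280 bases for the knockout-labelled and 12361 for the wild-type enriched peaks, and to the 3′ splice site 22500 and 17890 bases. In the 388 highest wild-type peaks these medians were 5941.5 and 11372.5 bases. Over all intronic regions they were larger, 15725 and 13867 bases to the 5′ splice site and 23522 and 19783 to the 3′ splice site. The first 10% of the intron held 16.8% and 13.2% of the peaks, and the last 10% held 5.67% and 6.86%. For all intronic regions the first 10% held 13% and 12.7%, and the last 6.88% and 6.80%. Both enriched and other regions thus thinned out along the intron.

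Peaks beside splice sites were rare. Within 100 bases of the 5′ splice site lay 3 knockout-labelled peaks (0.773%, 0.160% to 2.24%) and 75 wild-type peaks (2.04%, 1.61% to 2.55%), against 1.81% and 1.65% of the bases. Within 100 bases of the 3′ splice site lay 5 (1.29%, 0.420% to 2.98%) and 79 (2.15%, 1.71% to 2.67%), against 1.78% and 1.64% of the bases. Only the last of these intervals excluded its share of the bases. That was lost with every base of a peak outside exons (1.68%, 1.29% to 2.15%) and with distances in the representative transcript (1.52%, 1.15% to 1.97%). More than 10000 bases from either splice site lay 45.4% of the knockout-labelled and 45.0% of the wild-type peaks, and 34.5% of the 388 highest wild-type peaks. Of all intronic regions 48.9% and 46.4% lay that far.

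Introns of 150 bases or less, in which an AGO2-bound intron could be a whole short RNA, held 1 enriched knockout-labelled peak (0.258%) and 17 wild-type peaks (0.462%, 0.270% to 0.739%), against 0.331% and 0.183% of the bases, and the wild-type interval lay above its share of the bases. With every base of a peak outside exons the wild-type share was 0.247% (0.113% to 0.469%), which covers its share, and in the 388 highest wild-type peaks it was 0%. The knockout-labelled one was in intron 2 of Pim3, a kinase gene, with 12 reads over 1 (log2 4.52), and it reached across the 5′ splice site into the exon. In the wild type, intron 6 of Wdr31, 97 bases long, had 8 reads over 1 (log2 5.66). Intron 22 of Arhgef40, 136 bases long, had 7 reads over 1 (log2 5.47), and the peak began at the 5′ splice site. Intron 13 of Sgsm2, 86 bases long, had 7 reads over 1 (log2 5.47), and the peak ended 3 bases before the 3′ splice site. Intron 14 of Zfr2, 86 bases long, had 2 touching peaks of 6 reads over 1. In an intron of 739 bases, a wild-type peak of Ralgps1 with 14 reads over 2 (log2 5.47) ended 2 bases before the 3′ splice site. With a peak edge within 3 bases counted, 9 wild-type peaks met a 5′ splice site and 3 met a 3′ splice site, and 0 knockout-labelled peaks met either.

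Hosts of intronic peaks were long genes. The median length was 248545 bases for the 249 hosts of enriched knockout-labelled peaks and 124413 for the 1537 hosts in the wild type, against 19707 for all 20477 protein-coding genes with an intron. Genes with an enriched 3′ UTR peak had medians of 45705 and 41933 bases, and those with an enriched coding peak 47697 and 44246. Taking the 388 highest wild-type peaks gave a median of 205132 bases. Genes over 100000 bases were 71.1% of the knockout-labelled and 58.1% of the wild-type hosts, against 12.2% of all genes.

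Long genes also had more clusters per base. Genes over 300000 bases held 33.1% of the exon-free bases but 51.5% of the intronic clusters in the knockout-labelled library and 49.0% in the wild type. Their density was 58.0 and 31.04 clusters per megabase, against 12.8 and 9.06 in genes of 10000 bases or less. The enriched share did not follow: it was 1.04% in the longest class and 2.02% in the shortest in the knockout-labelled library, and 17.3% and 24.0% in the wild type. The 490 knockout-labelled and 394 wild-type host genes with the most clusters, 10% of each, held 59.9% of the knockout-labelled and 53.1% of the wild-type clusters, on 37.8% and 36.2% of the hosts' exon-free bases. How much of each pre-mRNA the brain held was not measured in these tables, and its part in these densities was not tested.

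**Figure D4:**
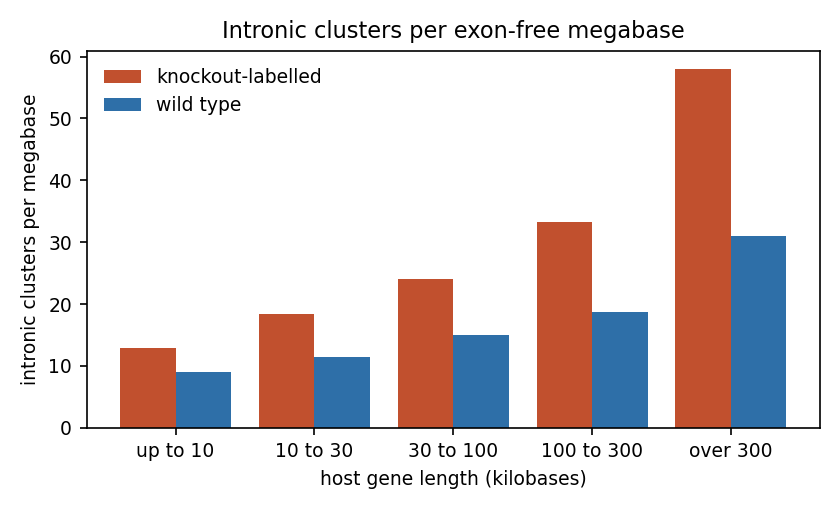
Intronic clusters per exon-free megabase in 5 classes of host gene length, for the knockout-labelled (left bars) and the wild-type library (right bars), over all 20477 protein-coding genes with an intron. Density climbs with length in both libraries, to 58.0 and 31.04 clusters per megabase in genes over 300000 bases.

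Enriched intronic peaks were also counted per host gene. In the knockout-labelled library Nrxn3, a presynaptic neurexin, and Tenm2, a teneurin adhesion protein, had 7 each, and Frmd4a had 6. The wild type had 13, 19 and 15. Among wild-type hosts Auts2 and the neuregulin gene Nrg3 had 24 each, Celf2, an RNA-binding splicing regulator, had 23, and the receptor phosphatase gene Ptprd had 21. The knockout-labelled counts of these 4 genes were 3, 0, 3 and 2. Tenm2 had the most intronic clusters, enriched or not, 385 in the knockout-labelled library and 173 in the wild type.

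Among the shorter leading hosts, Ankrd52, of 31590 bases, had 4 enriched peaks in the knockout-labelled library and 7 in the wild type, out of 4 and 7 clusters. Thra, a thyroid hormone receptor gene of 28369 bases, had 4 and 7, out of 8 and 9 clusters. In Tenm2, by comparison, 7 of 385 and 19 of 173 clusters were enriched.

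Hosts were also counted in lists of genes written for this work. Of all 20477 genes, 1.22% had an enriched intronic peak in the knockout-labelled library and 7.51% in the wild type, and of the 2492 genes over 100000 bases 7.10% and 35.8%. The list of 14 genes of neurexins, neuroligins, latrophilins and contactin-associated proteins, with Lrrtm4, and with a median length of 752222 bases, had one in 5 and 11 cases. The 20 genes of immunoglobulin and receptor phosphatase adhesion had one in 10 and 19 cases, among them Ptprd, Opcml, Ncam1 and Cadm2. The 22 scaffold genes had one in 10 and 18 cases, with 5 knockout-labelled and 18 wild-type peaks in Dlg2. The 26 glutamate and GABA receptor genes had one in 4 and 20 cases, with 12 wild-type peaks and no knockout-labelled one in Grin2b, an NMDA receptor subunit gene.

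The list of cadherins and protocadherins (20 genes), which also holds Csmd1 and Csmd3 of the CUB and Sushi domain family, had an enriched intronic peak in 6 and 10 genes, the axon guidance list (22) in 4 and 17, and the voltage-gated channel list (22) in 6 and 15. Of 30 mRNAs listed as FMRP targets in mouse brain, 5 had one in the knockout-labelled library and 18 in the wild type, with a median gene length of 117256 bases. Of 30 RNA-binding and splicing factor genes, 2 and 12 had one, including Celf2, Rbfox1 and, in the wild type alone, Celf4 with 14 peaks. Of 23 transcription factor genes, 5 and 16 had one, and of 20 microtubule, motor, ankyrin and spectrin genes 4 and 12, led by the ankyrin gene Ank2 with 0 and 10 peaks. These lists are of genes much longer than the median gene, and length was not held equal.

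Of 20 chromatin regulator genes, 2 and 6 had an enriched intronic peak, and of 14 growth and imprinted genes 1 and 3. Of 17 Argonaute and miRNA pathway genes 1 and 2 had one, namely Lin28b in the knockout-labelled library and Tnrc6a and Dgcr8 in the wild type. The 21 ribosomal protein and translation genes, with a median length of 3814 bases, had none in either library. Of 30 protein-coding hosts of intronic miRNA genes, 3 and 11 had one, led by Arpp21 with 3 and 14 peaks. Within 1000 bases of an annotated miRNA gene lay 0 of the 388 knockout-labelled and 4 of the 3676 wild-type intronic peaks. Regions that overlap a miRNA gene were removed by the rule for intronic regions. These counts therefore cover only the flanks of miRNA genes.

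Intronic places called in both libraries could be set side by side. There were 574, of which 163 were enriched in both, 361 in the wild type alone and 50 in the knockout-labelled library alone. The same split of exonic places is not given here. The median log2 over input was 3.11 in the knockout-labelled library and 4.99 in the wild type, and 513 of the 574 were higher in the wild type. At the same reads and the same denominator the depth ratios of input to immunoprecipitation in the 2 pairs set the wild-type log2 1.72 higher. The median difference of wild type minus knockout-labelled was 2.05 (quartiles 1.07 and 2.89) over all 574 places and 1.26 over the 163 enriched in both. These differences are on either side of 1.72, and with 1 library each they have no replicate check.

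**Figure D5:**
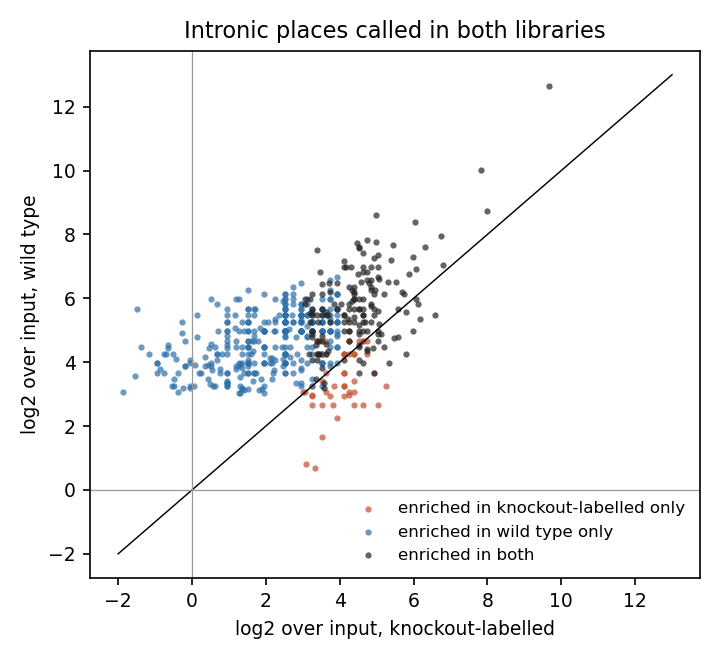
log2 over input of the 574 intronic places called in both libraries, with the knockout-labelled library on the x axis and the wild type on the y axis; the diagonal marks equal values. Most points, 513, lie above the diagonal, and 31 lie left of 0 on the x axis while above 0 on the y axis.

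The authors' deposited table of the wild-type over the knockout-labelled immunoprecipitation, whose log2 is positive where the wild type is higher, gave a median log2 of 2.77 for the 20096 intronic regions and the same for all 46862. In the authors' deposited table the regions are those called in the wild type, so a region there had wild-type reads by construction. A log2 of 2.77 is that of 3 wild-type reads over a denominator of 1, which was the case for 41.3% of intronic regions. As higher in the wild type, with −log10 p of 3 or more and log2 of 1 or more, 415 intronic regions passed, which is 2.07%, against 3.39% of all regions in the authors' deposited table. Below 0 lay 434 intronic regions, which is 2.16%, against 6.22% of all regions there. Among intronic regions with at least 20 recovered reads, 366 in all, the authors' deposited table gave a middle log2 value of 0.89 (quartiles 0.45 and 1.43). For all regions with as many recovered reads it was 0.999. Regions with a log2 below 0, such as the Ilkap place (log2 -0.53), have no recovered reads there. They are left out of both values, which therefore lie higher than with them.

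The intronic places with the highest −log10 p in the authors' deposited table were Grm5 (log2 2.42), Capn9 (log2 0.60) and Gria3, which had a log2 of 1.65 from a knockout-labelled denominator of 119 and 164 wild-type reads. For the first Nova1 place the authors' deposited table listed log2 2.58, from a knockout-labelled denominator of 29 and 76 wild-type reads. For B4galnt3, which encodes a glycosyltransferase, the authors' deposited table listed log2 3.36, from a knockout-labelled denominator of 10 and 45 wild-type reads. The lowest recovered values in the authors' deposited table were close to 0, such as Unc5c with a log2 of 0.04 from a knockout-labelled denominator of 322 and 145 wild-type reads, because reads could be recovered only where the listed −log10 p was above 0. Places called in the knockout-labelled library alone are not in this table.

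Strong intronic peaks with no region of the other library within 50 bases were modest in reads. In the knockout-labelled library the leading ones were in Tmeff1, with a miR-124 site and 19 reads over 1 (log2 5.19), Frmd4a with 23 over 5 (log2 3.14) and Rora with 18 over 2 (log2 4.11). In the wild type they were in Cacng4, an AMPA receptor auxiliary subunit gene, with 16 over 1 (log2 6.66), Cntn1, a contactin gene, with 16 over 2 (log2 5.66), and Ctnna2 with 14 over 1 (log2 6.47). None of these 6 peaks had more than 23 reads.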

How the data were processed

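AGO2 eCLIP regions of 2 immunoprecipitated libraries, each scored against its input, and a table of the wild-type over the knockout-labelled library were used. Per the labels' protocols, reads were trimmed with cutadapt 1.15, those matching mouse repeats were removed, the rest were mapped to mm10 with STAR 2.6.0c, duplicates were removed with UMI tools (given as version 5.2), and CLIPper 1.4 called clusters on the immunoprecipitated reads. The authors deposited for each region a −log10 p and a log2 ratio of read densities, and total depth is unknown. The log2 values gave whole-number read ratios in 99.97% of regions of each library, and the reads themselves were recovered where the p-value matched within 1%, in 75411 of 86106 knockout-labelled and 45868 of 46860 wild-type regions. Recovery was tested on simulated data, and the interval operations behind the intron positions on made-up intervals. Intron ranks and distances to splice sites were not tested in this way.

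Regions were placed on GENCODE M21 and sequence was read from the RefSeq mm10 genome, in which 59215 of 59255 annotated start codons read ATG. Shares have 95% Clopper-Pearson intervals from scipy 1.17.1; they cover counting error, not the spread between animals. No test between groups was made, and an overlap means at least 1 base on the same strand. Intron number and distances follow the exon-free stretch around a region's midpoint, with the rank taken from a representative transcript. Named peaks and genes are the highest by −log10 p or by number of enriched intronic peaks, up to 4 genes per list, peaks in short introns or at splice sites, shared pairs, and peaks of 1 library; the narrow sites, the repeated sites, Nova1, B4galnt3, Ankrd52 and Thra were in part chosen after their values were seen. The members and lists were chosen with earlier results of these data known. Alternatives were stricter limits, same-strand exons, whole regions outside exons, joined regions, 10 or more reads, equal numbers, other transcripts, other overlaps, other windows and shorter sites.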

Additional observations from a re-analysis of the deposited data

Results flagged for a closer look

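Of the 574 intronic places called in both libraries, 31 lay below the input in the knockout-labelled library and were enriched in the wild type, and 0 lay the other way. Because each genotype had 1 library, the difference was not tested. Among the places named by rule, the one in the 80-base first intron of Fam32a was of this kind, with a log2 over input of -0.70 in the knockout-labelled library and 4.25 in the wild type, from 9 wild-type reads over 3. Others, chosen after their values were seen, were in Plekha5, with log2 of -0.28 and 4.91, Gcc2, with -0.42 and 4.10, and Macf1, with -0.65 and 4.43, in the same order of libraries. The depth ratio of input to immunoprecipitation, which sets the wild-type log2 1.72 higher at equal reads, moves with these values, and its part was not tested.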

How the results depend on the processing

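Values below are given for the knockout-labelled library first and the wild type after it. Over the settings tried, 102 values moved by less than their counting interval and 54 moved further. Limits of 5 and 4 for −log10 p and log2 gave intronic shares of enriched peaks of 12.1% and 22.7%, enriched shares of intronic regions of 0.402% and 4.56%, host gene medians of 301926 and 184245 bases, overlaps with the other library of 73.6% and 10.7%, and G-quadruplex shares of 1.39% and 6.22%; knockout-labelled shares near either splice site and in short introns were 0%, the wild-type first-intron share was 29.9% and its seed share 15.8%. With 10 or more reads, introns were 10.6% and 14.6% of regions, of which 43.7% and 77.1% were enriched (regions without recovered reads, most of them at or below the input, are left out), and the median log2 between libraries was 1.19; limits of 5 and 2 there left 40 regions. Joining touching regions gave intronic shares of 38.9% and 40.6%, seed shares of 48.5% and 11.3% and, in the wild type, 30.8% of enriched peaks, 20.04% enriched and 30.7% soft-masked bases. Asking that every base lie outside exons gave 41.2% intronic regions and 0% near the 5′ splice site and in short introns in the knockout-labelled library, and in the wild type 1.43% near the 5′ and 1.68% near the 3′ splice site and 0.247% in short introns. Equal numbers gave overlaps of 39.2% and 38.1% and, in the wild type, an intronic share of 16.1%, a median host length of 205132 bases, a seed share of 23.5%, 32.4% soft-masked bases, 2.84% near the 3′ splice site and 0% in short introns. Overlap with any region of the other library was 66.5% and 16.4%. Sites of 6 bases gave seed shares of 49.2% and 13.1%, and 50 added bases on each side 47.4% and 14.2%; control windows 200 bases away held seed sites in 3.47% and 2.14% and, in the wild type, a G-quadruplex in 1.57%. The transcript with the most exons gave a wild-type first-intron share of 28.8%, and distances in the representative transcript 1.52% near the 3′ splice site. Without sites like a mature miRNA the wild-type intronic share was 31.6%. The cause of these shifts was not tested. The added 50 bases, the joined seed and soft-masked shares and the removal of sites like a miRNA were chosen after seeing the data. No paired analysis was possible because each genotype had 1 immunoprecipitated library. Total depth is unknown, and most intronic regions held 3 reads or fewer.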
